A study of Mus musculus with 14 samples.

Results

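The lysosomal genes described here were chosen by name: 30 listed genes for lysosomal hydrolases, their cofactors, membrane proteins and regulators, plus every gene whose symbol starts with Atp6v, the subunits of the vacuolar proton pump. Of the 18193 genes with a probe set naming 1 symbol, 49 were members, 29 from the list and 20 subunits of the pump. Cd63 had no such probe set and is not analysed here. Where a gene had several probe sets the one that varied most was used, and 43 members passed a filter on low SD. The 6 that did not, with SD from 0.0102 to 0.0256 on the log2 scale, were Ctss, Atp6v0a4, Atp6v0d2, Atp6v1b1, Atp6v1e2 and Atp6v1g2, and they were not tested. Counts below are over the 43 tested members.

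Lysosomes are the membrane-bound compartments in which cells break down proteins, glycans and lipids delivered by endocytosis and autophagy. Their hydrolases work at acidic pH, which is kept by the V-ATPase, a rotary pump whose V1 sector hydrolyses ATP in the cytosol and whose V0 sector carries protons across the membrane. Many of these genes share a promoter motif bound by TFEB and its relatives, transcription factors that enter the nucleus when nutrients are scarce. In the mammary gland, lysosomal proteases are known for their part in involution after weaning.

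The cells were SCp2, an established line of mouse mammary epithelial cells, grown in medium with fetal calf serum. Dishes of 35 mm were plated with 25K, 50K, 100K or 250K cells (K, kilo) and kept for 3 days either as controls or with MMP3 (MMP-3, stromelysin-1), a matrix metalloproteinase released by stromal cells. RNA of each dish was hybridised to 1 Affymetrix Mouse 430 2.0 array. At 50K, 100K and 250K experiment A had 1 dish of each agent, 6 arrays in all, and experiment B had the same plus 1 dish of each at 25K, 8 arrays. All groups came from the same line with no genetic change named in the labels, and the dose of MMP3 was not given. Within an experiment each agent and density had 1 dish. P-values of the main fits to A or B alone therefore measure only how far these dishes lie from a straight line in log2 density for each agent. Over both experiments they also take in differences between the experiments at the same agent and density. The deposited log2 values were centred, every probe set having a median of 0 across the 14 arrays, so they show differences between arrays, and neither the level of a gene nor the rank of genes by level. Precision is limited by how few arrays there are.

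Arrays of experiment B did not all follow their labels for the gene Ifit1. Ifit1, an interferon-induced gene given as a check of the labels, was at -2.91, -2.98 and -2.94 on the controls of A at 50K, 100K and 250K and at 2.83, 3.96 and 4.21 on the MMP3 arrays. In experiment B its controls at 25K, 50K, 100K and 250K were at -2.93, 3.71, -2.93 and 4.26, and its MMP3 arrays at -2.83, 4.53, -2.97 and 5.15. Compared with A, the arrays labelled control 50K, control 250K, MMP3 25K and MMP3 100K of B thus went against their labels for this gene. Within B Ifit1 was high at 50K and 250K and low at 25K and 100K under both agents. Whether the labels or the densities account for this was not tested, and directions drawn from experiment B rest on the labels. The array labelled MMP3 100K of B also stood apart in spread, with an SD over probe sets of 0.869 against 0.232 to 0.412 on the others. For this reason each experiment was fitted alone as well as together, and the counts are also given without those 4 arrays.

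Promoters of 39 of the 49 members were matched in a RefSeq table (GRCm38.p6), each covering 250 bases before to 50 after a gene's start. The E-box CACGTG was found in 13 of the 39 members (33.3%), against 8.09% of the 27025 genes in the table and 7.15% of its 32851 promoters. The longer TCACGTGA, the core of the motif bound by TFEB, was found in 8 members (20.5%), namely Atp6v0d1, Atp6v0e, Atp6v1a, Cln3, Ctsa, Ctsd, Gla and Mcoln1, against 1.12% of all genes and 0.974% of all promoters. The longer motif contains the shorter, and each is its own reverse complement, so both strands were covered. A match is a description of letters and was not tested as a binding site. The 4 promoters below belong to the members with this motif and the largest MMP3 effect over both experiments, and are shown because the motif is the sequence feature that these 8 share. Each is printed over 280 bases, from 250 before to 30 after the start, 5′ to 3′ on the gene's strand, with the longer motif in capitals. Ctsa and Gla hold it at 2 positions, and Atp6v1a and Cln3 at 1.
Ctsa, chr2:164833523-164833802, plus strand: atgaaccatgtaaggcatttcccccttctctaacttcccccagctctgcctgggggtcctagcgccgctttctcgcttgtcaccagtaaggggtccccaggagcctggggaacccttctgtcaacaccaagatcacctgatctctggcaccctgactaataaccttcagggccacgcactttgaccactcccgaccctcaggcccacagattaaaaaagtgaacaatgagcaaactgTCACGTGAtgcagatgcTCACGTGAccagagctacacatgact
Gla, chrX:134600976-134601255, minus strand: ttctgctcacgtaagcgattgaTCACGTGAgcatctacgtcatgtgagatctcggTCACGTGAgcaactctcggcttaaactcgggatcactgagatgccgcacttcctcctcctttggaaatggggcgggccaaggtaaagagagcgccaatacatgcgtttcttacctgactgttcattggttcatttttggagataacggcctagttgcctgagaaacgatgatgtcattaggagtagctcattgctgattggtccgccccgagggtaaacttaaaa
Atp6v1a, chr16:44139230-44139509, minus strand: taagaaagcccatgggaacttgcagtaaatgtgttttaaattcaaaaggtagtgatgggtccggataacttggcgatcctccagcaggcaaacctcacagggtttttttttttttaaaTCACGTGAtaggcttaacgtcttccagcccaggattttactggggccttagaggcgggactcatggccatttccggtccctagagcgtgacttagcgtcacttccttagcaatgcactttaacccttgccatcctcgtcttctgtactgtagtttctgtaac
Cln3, chr7:126583207-126583486, minus strand: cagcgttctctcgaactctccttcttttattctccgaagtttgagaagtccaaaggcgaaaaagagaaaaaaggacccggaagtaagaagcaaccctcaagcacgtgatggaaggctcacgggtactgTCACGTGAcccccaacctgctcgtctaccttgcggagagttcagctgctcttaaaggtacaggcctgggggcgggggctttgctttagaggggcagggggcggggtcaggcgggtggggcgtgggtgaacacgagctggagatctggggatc

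In experiment A many lysosomal genes were higher with MMP3, among them members of every class but the regulators. Of the 43 tested members 26 rose and 0 fell at an adjusted p under 0.05 (limma, Benjamini-Hochberg over 11812 genes), where 14.5% of all genes tested rose, 10.5% fell and 25.1% were called in either direction. An unadjusted p under 0.05 was found for 35 of the 43 members and for 4913 of the 11812 genes. The median MMP3 effect of the members was 0.59 on the log2 scale, against -0.02 over all genes. The effect is the mean difference between the MMP3 and control arrays over the 3 densities, and it was above 0 for 36 members and for 45.8% of all genes. In RNA from whole dishes, fewer cells of a type and less RNA per cell cannot be told apart. On 29 members every MMP3 array of A lay above every control, which held for 19.5% of all genes, and on 1 member, Tfeb, every MMP3 array lay below, against 23.3%. By class, the called members were 5 of 8 cathepsins and other proteases, 6 of 8 glycosidases and lipid hydrolases, 2 of 4 cofactors and lipid transporters, 3 of 6 membrane proteins, 4 of 6 subunits of V0, 6 of 9 of V1, and 0 of 2 regulators, Tfeb and Sqstm1. With the matched pair of dishes at each density as the block, 20 members were called, and 1908 of the 11812 genes, 1120 of them up. Without the filter on SD, which adds genes of little spread to the test, 12 members were called. Of the 18193 genes then tested, 1271 were called, 780 of them up. With any 1 array left out, 1 residual degree of freedom remained and no gene was called.

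Fitting both experiments together gave a smaller set. With experiment as a block, 8 members rose and 0 fell, where 1.34% of all genes rose, 1.41% fell and 2.75% were called in either direction, and 26 members and 2059 genes were under an unadjusted p of 0.05. Effects were above 0 for 40 of the 43 members, against 52.5% of all genes, and their median was 0.47 against 0.01 over all genes. MMP3 was above control in all 7 pairs of dishes for 14 members, which held for 4.34% of all genes, and below in all 7 for 0 members, against 3.99%. Experiment A is part of this fit, so the directions are not independent of those above. The 8 calls rested on a small margin: with the matched pair as the block 0 members and 2 genes were called, and with no term for experiment 0 of both. No gene was called when any of 10 arrays was left out in turn, that is, every array except control 250K and MMP3 100K of A and control 50K and MMP3 100K of B. Without those 4 arrays, in the same order, 7, 6, 16 and 21 members were called, and 622, 293, 682 and 1287 genes. With the 4 arrays of B on which Ifit1 went against the label left out together, 33 members rose and 0 fell, where 21.8% of all genes rose. That alternative was chosen after seeing the data, and the members' median followed Ifit1 across arrays (r = 0.858 over 14 arrays), so it is no independent support.

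Experiment B alone gave 0 calls among members and 0 of 11812 genes (0%) by limma, with 1373 genes and 9 members under an unadjusted p of 0.05. The smallest adjusted p-values among members were those of Gaa (0.79 on the log2 scale, SE 0.107, adjusted p = 0.305), Grn (0.84, SE 0.158, adjusted p = 0.305) and Scarb2 (1.07, SE 0.254, adjusted p = 0.309). The median effect was 0.35, against 0.01 over all genes, and 36 of 43 were above 0, against 51.6%. With 1 array of B left out in turn, the array that stood apart included, the median ran from 0.22 to 0.49 and 0 genes were called. On 6 members every MMP3 array of B lay above every control, against 5.2% of all genes: Gaa, Gla, Grn, Laptm4a, Scarb2 and Sqstm1. On 0 members every MMP3 array lay below, against 5.39%.

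**Figure D1:**
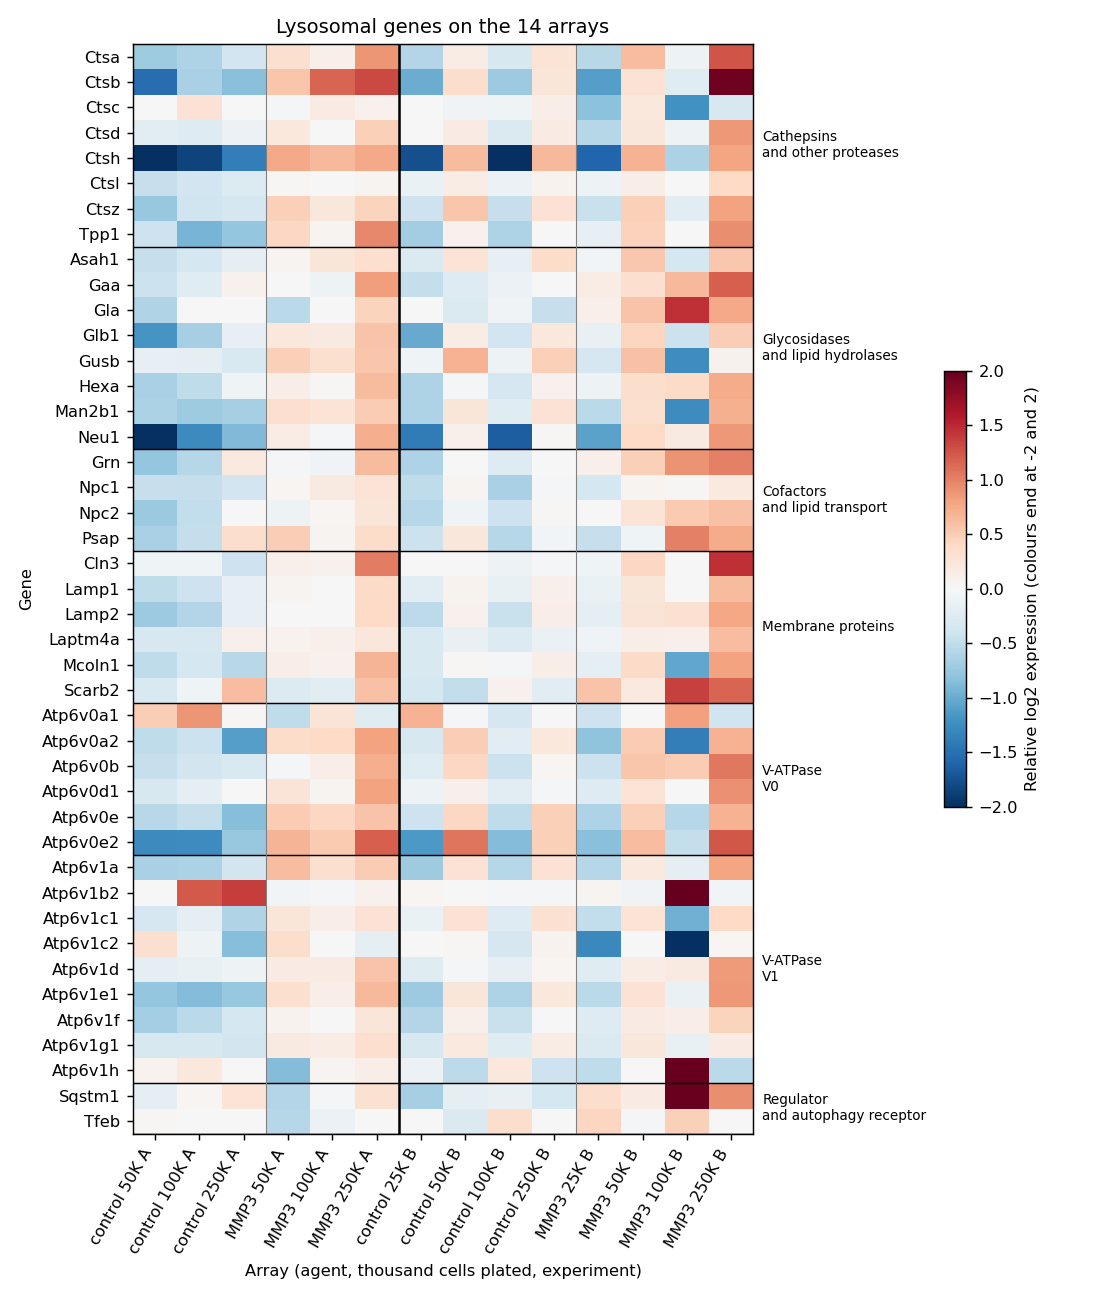
Relative log2 expression (colour, median over 14 arrays at 0, ends at -2 and 2) of the 43 tested lysosomal genes (vertical axis, by class) on each array (horizontal axis, agent, K cells plated and experiment). Most genes are below 0 on the 3 controls of experiment A and above 0 on its 3 MMP3 arrays; among the controls of experiment B those at 50K and 250K are mostly above 0, and the MMP3 25K array is mostly below.

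**Figure D2:**
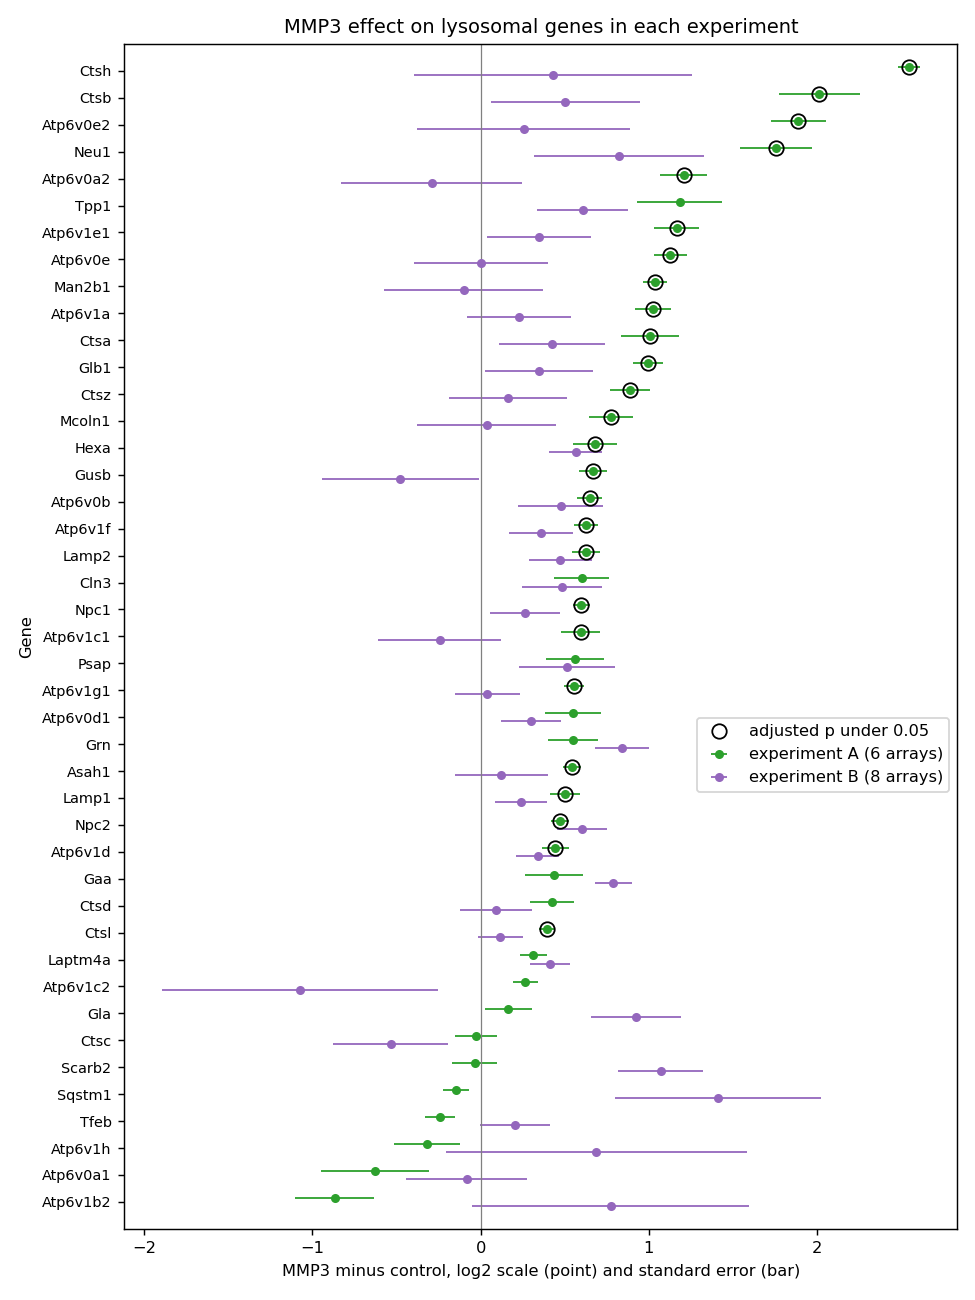
MMP3 minus control on the log2 scale (horizontal axis; bars, standard error) for each of the 43 genes (vertical axis, ordered by the effect in experiment A), in experiment A (6 arrays) and B (8 arrays). Circles mark the 26 genes with an adjusted p under 0.05 in A; no gene was called in B, where bars are wider for most genes.

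Among the cathepsins and other lysosomal proteases, Ctsh had the largest rise in experiment A. Array values are given in order of density, 50K, 100K and 250K in A and 25K, 50K, 100K and 250K in B. Ctsh, which encodes cathepsin H, an aminopeptidase of the cysteine protease family, was at -2.25, -1.85 and -1.38 on the controls of A and at 0.75, 0.64 and 0.77 on the MMP3 arrays. The groups did not overlap, and the rise was 2.54 on the log2 scale (SE 0.0635, 5.83-fold, adjusted p = 0.0121). In B its controls were at -1.75, 0.63, -1.99 and 0.65 and its MMP3 arrays at -1.59, 0.70, -0.63 and 0.79. There the 50K and 250K arrays were high under both agents and the other 4 low, and the effect over both experiments was 1.34 (SE 0.563, adjusted p = 0.245). Ctsb, for cathepsin B, a cysteine protease with endopeptidase and exopeptidase activity, was at -1.52, -0.65 and -0.83 on the controls of A and at 0.55, 1.17 and 1.32 with MMP3. It rose by 2.01 (SE 0.239, adjusted p = 0.0219) without overlap. In B the Ctsb controls were at -0.99, 0.35, -0.72 and 0.24 and the MMP3 arrays at -1.10, 0.29, -0.24 and 1.94, overlapping, with the highest value at 250K with MMP3. Other probe sets of Ctsb had mean differences in A of 0.995, 0.878 and 0.706 and, opposite in sign, -0.381. The mean over all its probe sets gave 0.84 in A. Over both experiments the effect of Ctsb was 1.15 (limma, adjusted p = 0.0974), and 0.69 with that mean (adjusted p = 0.0276). Such means take in every probe set of a gene, also those under the SD filter.

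Tpp1 encodes a tripeptidyl peptidase that is lost in a childhood neuronal ceroid lipofuscinosis. Its controls of A were at -0.41, -0.93 and -0.78 and its MMP3 arrays at 0.41, 0.06 and 0.96, and in B the controls were at -0.69, 0.08, -0.62 and 0.0095 and the MMP3 arrays at -0.17, 0.46, -0.0095 and 0.93. MMP3 was above control in all 7 pairs, and over both experiments Tpp1 rose by 0.85 (SE 0.196, 1.81-fold, adjusted p = 0.0486), the largest of the 8 calls. In A alone the difference was 1.18 with an adjusted p of 0.0541, short of the threshold.

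Ctsa, for cathepsin A, a carboxypeptidase that also protects sialidase and beta-galactosidase in a complex, was at -0.71, -0.62 and -0.39 on the controls of A and 0.32, 0.10 and 0.88 with MMP3. It rose there by 1.0 (SE 0.174, adjusted p = 0.0372), or by 0.49 with the mean over its probe sets. The other Ctsa probe set varied little (SD 0.057), with a mean difference in A of -0.017. In B the Ctsa controls were at -0.59, 0.15, -0.32 and 0.28 and the MMP3 arrays at -0.56, 0.61, -0.10 and 1.26. All 4 pairs were higher with MMP3, and the groups overlapped. Ctsz, for the carboxypeptidase cathepsin Z, had controls of A at -0.75, -0.40 and -0.36 and MMP3 arrays at 0.48, 0.23 and 0.45, a rise of 0.89 (SE 0.117, adjusted p = 0.0244). In B the Ctsz controls were at -0.41, 0.55, -0.46 and 0.29 and the MMP3 arrays at -0.44, 0.48, -0.23 and 0.80. The groups overlapped and 2 of 4 pairs were higher. On the other probe sets of Ctsz 7 of 7 pairs over both experiments were higher with MMP3. Ctsl, for cathepsin L, rose in A by a smaller 0.40 (SE 0.0496, adjusted p = 0.0232), or 0.19 with the mean over probe sets. The other Ctsl probe set was under the SD filter, with a mean difference in A of -0.017.

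Ctsd, the aspartic protease cathepsin D and a gene given whatever its result, was not called. Its controls of A were at -0.23, -0.25 and -0.12 and its MMP3 arrays at 0.21, -0.0098 and 0.48, a difference of 0.43 without overlap and with an adjusted p of 0.106. In B the Ctsd controls were at 0.0098, 0.16, -0.28 and 0.16 and the MMP3 arrays at -0.57, 0.22, -0.10 and 0.87, with the lowest and the highest value both among the MMP3 arrays. Ctsc, the dipeptidyl peptidase cathepsin C, had an effect of -0.03 in A and -0.54 in B and was called in neither.

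Of the 8 glycosidases and lipid hydrolases 6 were called in experiment A. Neu1, the lysosomal sialidase, was at -2.26, -1.28 and -0.88 on the controls of A and at 0.15, -0.03 and 0.72 with MMP3. It rose by 1.75 (SE 0.214, 3.37-fold, adjusted p = 0.0226), with every MMP3 array above every control. In B the controls of Neu1 were at -1.39, 0.10, -1.65 and 0.03 and the MMP3 arrays at -1.08, 0.40, 0.19 and 0.86, higher in all 4 pairs but overlapping. Over both experiments the effect was 1.22 (SE 0.328, adjusted p = 0.0734), short of the threshold. Its probe sets disagreed in sign in A, where their mean gave 0.57. The others of Neu1 had mean differences in A of -0.012 and -0.020, the latter under the SD filter. Man2b1, the lysosomal alpha-mannosidase, was at -0.63, -0.71 and -0.66 on the controls of A and 0.33, 0.27 and 0.51 with MMP3. It rose by 1.04 (SE 0.0723, adjusted p = 0.0137), or 0.52 with the mean over probe sets. That mean takes in a probe set under the SD filter, whose mean difference in A was 0.0068. In B the Man2b1 controls were at -0.62, 0.24, -0.24 and 0.28 and the MMP3 arrays at -0.54, 0.33, -1.25 and 0.72. The 100K MMP3 array was the lowest of the 8. Glb1, the beta-galactosidase used as a marker of senescent cells, had controls of A at -1.19, -0.67 and -0.17 and MMP3 arrays at 0.21, 0.17 and 0.57. The rise was 0.99 (SE 0.0887, adjusted p = 0.0162), and in B the values were -1.01, 0.15, -0.39 and 0.21 for controls and -0.15, 0.44, -0.43 and 0.49 for MMP3, overlapping.

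Hexa and Gaa were among the 8 members called over both experiments. Hexa, the alpha subunit of beta-hexosaminidase A, the enzyme lost in Tay-Sachs disease, was at -0.65, -0.52 and -0.09 on the controls of A and at 0.13, 0.02 and 0.63 with MMP3. Its controls of B were at -0.61, -0.02, -0.33 and 0.09 and the MMP3 arrays at -0.10, 0.35, 0.38 and 0.75. All 7 pairs were higher with MMP3, and Hexa rose by 0.61 over both experiments (SE 0.0975, 1.53-fold, adjusted p = 0.0286) and by 0.68 in A (SE 0.133, adjusted p = 0.0458). Gaa, the acid alpha-glucosidase that degrades glycogen and is lost in Pompe disease, was at -0.42, -0.24 and 0.09 on the controls of A and at -0.01, -0.10 and 0.84 with MMP3. In B its controls were at -0.47, -0.25, -0.11 and 0.01 and its MMP3 arrays at 0.15, 0.34, 0.66 and 1.19. In A the Gaa groups overlapped, in B every MMP3 array lay above every control, and within each agent of B the values rose with each step of density. Gaa rose by 0.64 over both experiments (SE 0.107, 1.55-fold, adjusted p = 0.0286).

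Of the other 3 members of the class, Gusb and Asah1 were called in A. Gusb, beta-glucuronidase, rose by 0.67 (SE 0.0833, adjusted p = 0.0230) and Asah1, acid ceramidase, by 0.54 (SE 0.0550, adjusted p = 0.0186). In B Gusb was lower with MMP3 in all 4 pairs, with an effect of -0.48 (adjusted p = 0.710), and the difference between the experiments, -1.22 on the 12 arrays of shared densities, was not called (adjusted p = 0.249). Gla, alpha-galactosidase A, had an effect of 0.17 in A and 0.92 in B and was called in neither, and the mean over its probe sets was -0.04 in A, opposite in sign.

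**Figure D3:**
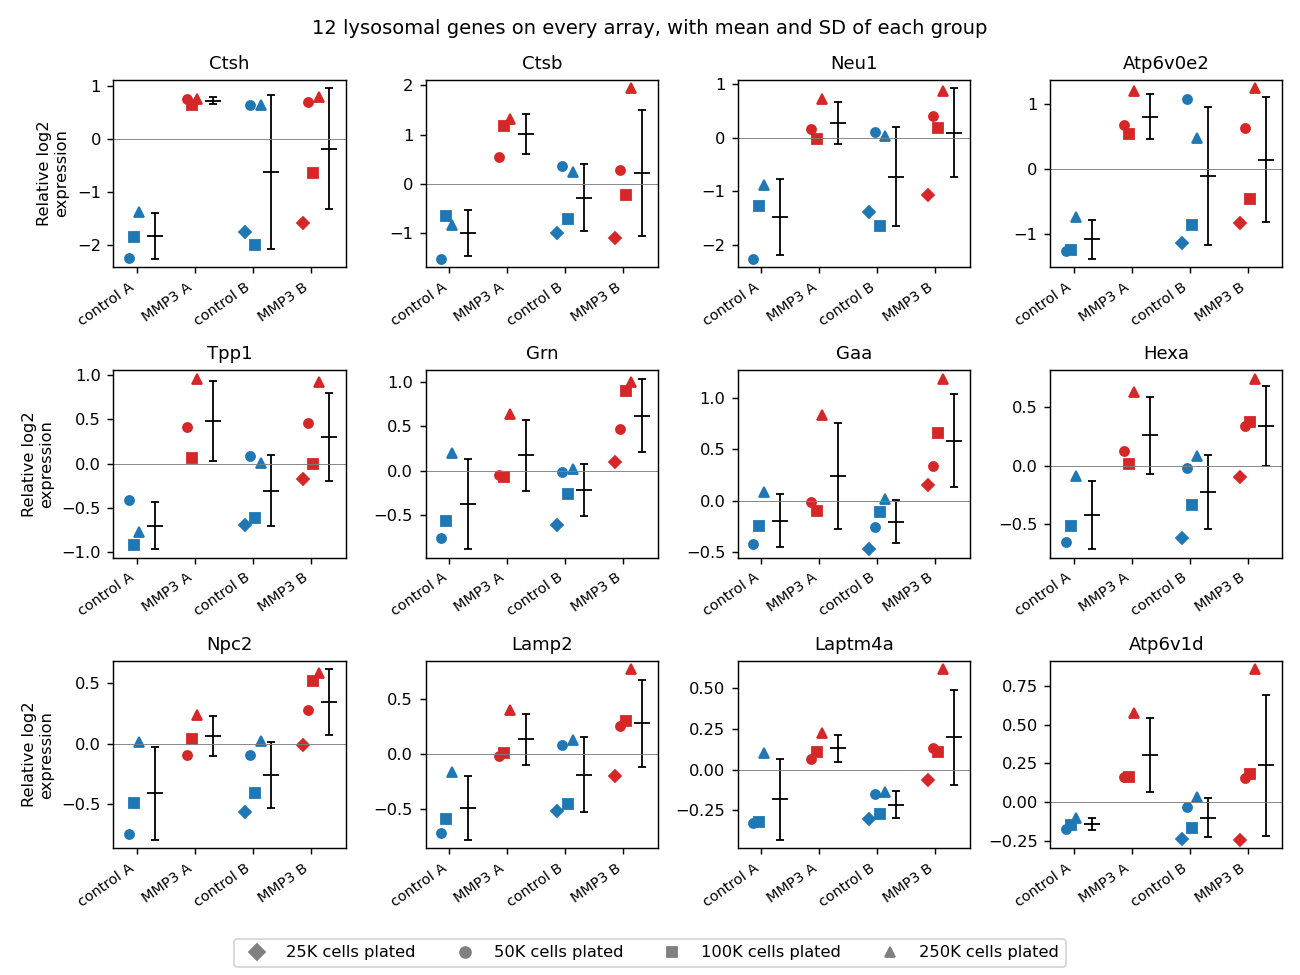
Relative log2 expression (vertical axis) of 12 lysosomal genes on every array, by agent and experiment (horizontal axis); symbols give the density plated, and the bar beside each group its mean and SD (n = 3 in A, n = 4 in B). Control and MMP3 arrays of experiment A are apart for Ctsh, Ctsb, Neu1 and Atp6v0e2, while their groups in B overlap; for Gaa and Grn the groups are apart in B.

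The 4 cofactors and lipid transporters had a median effect of 0.55 in A, where 2 were called, and of 0.56 in B, where 0 were and 2 had an unadjusted p under 0.05 (limma). Grn encodes progranulin, a secreted glycoprotein that is cut to granulins in lysosomes. It was at -0.77, -0.57 and 0.20 on the controls of A and at -0.05, -0.07 and 0.64 with MMP3, and at -0.62, -0.02, -0.26 and 0.02 on the controls of B and 0.10, 0.47, 0.90 and 1.0 with MMP3. The A groups overlapped and those of B did not, and over both experiments Grn rose by 0.72 (SE 0.125, 1.64-fold, adjusted p = 0.0286). Npc2, a soluble protein that hands cholesterol to the membrane protein Npc1, was at -0.75, -0.50 and 0.01 on the controls of A and -0.10, 0.04 and 0.24 with MMP3. Its controls of B were at -0.56, -0.09, -0.41 and 0.02 and the MMP3 arrays at -0.01, 0.28, 0.52 and 0.59. All 7 pairs of Npc2 were higher with MMP3, the rise was 0.55 over both experiments (SE 0.0917, adjusted p = 0.0286) and 0.47 in A (adjusted p = 0.0214), and another of its probe sets had the opposite sign in A. The mean over the probe sets of Npc2 gave 0.31 over both experiments and 0.31 in A. Npc1 rose in A by 0.60 (SE 0.0502, adjusted p = 0.0154). Psap, the precursor of the saposins that present lipids to hydrolases, had an effect of 0.56 in A and 0.51 in B and was called in neither.

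Of the lysosomal membrane proteins, Lamp2 and Laptm4a were called over both experiments. Lamp2, a heavily glycosylated membrane protein needed for autophagy, was at -0.72, -0.59 and -0.16 on the controls of A and at -0.02, 0.02 and 0.41 with MMP3. In B its controls were at -0.52, 0.08, -0.45 and 0.13 and its MMP3 arrays at -0.20, 0.26, 0.30 and 0.77. The groups were apart in A and overlapped in B, with all 7 pairs higher, and Lamp2 rose by 0.54 over both experiments (SE 0.108, adjusted p = 0.0357) and by 0.62 in A (adjusted p = 0.0243). Lamp1, its close relative, was at -0.51, -0.42 and -0.17 on the controls of A and 0.05, -0.02 and 0.38 with MMP3, a rise of 0.50 (SE 0.0902, adjusted p = 0.0395). The Lamp1 controls of B were at -0.23, 0.07, -0.14 and 0.11 and the MMP3 arrays at -0.13, 0.25, 0.02 and 0.64, higher in all 4 pairs but overlapping, and the effect over both was 0.35 (adjusted p = 0.0716). Laptm4a, a small transmembrane protein of late endosomes and lysosomes, was at -0.33, -0.32 and 0.10 on the controls of A and at 0.06, 0.11 and 0.22 with MMP3, overlapping. In B the controls of Laptm4a were at -0.30, -0.15, -0.27 and -0.13 and the MMP3 arrays at -0.06, 0.13, 0.11 and 0.62, without overlap. It rose by 0.37 over both experiments (SE 0.0821, adjusted p = 0.0435).

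Mcoln1, the cation channel TRPML1, rose in A by 0.78 (SE 0.131, adjusted p = 0.0360), and its effect in B was 0.04. Cln3, a membrane protein lost in juvenile Batten disease, had an effect of 0.60 in A (adjusted p = 0.0862), or 0.30 with the mean over probe sets. Scarb2, the lysosomal membrane protein LIMP-2, had an effect of -0.04 in A and of 1.07 in B. It was called in neither, and its difference between the experiments, 1.16 (SE 0.365), was not called (adjusted p = 0.239).

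The V0 sector of the proton pump had 4 of 6 tested subunits called in A and 0 over both experiments. Atp6v0e2, an isoform of the small e subunit, was at -1.27, -1.25 and -0.75 on the controls of A and 0.68, 0.53 and 1.19 with MMP3. It rose by 1.89 (SE 0.162, 3.7-fold, adjusted p = 0.0157). In B its controls were at -1.15, 1.07, -0.87 and 0.47 and its MMP3 arrays at -0.84, 0.62, -0.47 and 1.23, so that 50K and 250K were high and 25K and 100K low under both agents. Atp6v0e, the other e subunit, showed the same order, with -0.56, -0.47 and -0.85 on the controls of A and 0.51, 0.42 and 0.57 with MMP3, and -0.42, 0.42, -0.51 and 0.48 on the controls of B and -0.61, 0.47, -0.58 and 0.69 with MMP3. Its rise in A was 1.13 (SE 0.0995, adjusted p = 0.0160) and its effect in B was 0.002. Atp6v0a2, an isoform of the a subunit that lines the proton path, was at -0.51, -0.43 and -1.10 on the controls of A and 0.36, 0.40 and 0.81 with MMP3. It rose there by 1.21 (SE 0.140, adjusted p = 0.0213), and in B, with controls at -0.33, 0.50, -0.21 and 0.21 and MMP3 arrays at -0.81, 0.51, -1.39 and 0.69, the lowest value was at 100K with MMP3. Atp6v0b, a proteolipid of the rotor ring, rose in A by 0.65 (adjusted p = 0.0214), or 0.42 with the mean over probe sets. Atp6v0a1, the isoform of Atp6v0a2 best known from nerve terminals, had effects of -0.63 in A and -0.08 in B, and was not called. The mean over its probe sets gave -0.15 in A and 0.04 in B, so the sign in B turned. Atp6v0d1 had 0.55 in A (adjusted p = 0.102).

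In the V1 sector 6 of 9 tested subunits were called in A and 1 over both experiments. That 1 was Atp6v1d, a subunit of the central rotor stalk, with -0.18, -0.15 and -0.10 on the controls of A, 0.16, 0.16 and 0.58 with MMP3, -0.24, -0.03, -0.17 and 0.03 on the controls of B and -0.24, 0.16, 0.18 and 0.86 with MMP3. MMP3 was above control in all 3 pairs of A and 3 of 4 of B, and the rise was 0.38 over both experiments (SE 0.0755, 1.3-fold, adjusted p = 0.0342). Atp6v1e1, of the outer stalk, was at -0.78, -0.86 and -0.75 on the controls of A and 0.32, 0.13 and 0.65 with MMP3, and rose there by 1.17 (SE 0.134, adjusted p = 0.0210), or 0.70 with the mean over probe sets. In B the Atp6v1e1 controls were at -0.73, 0.24, -0.62 and 0.22 and the MMP3 arrays at -0.54, 0.29, -0.13 and 0.87, higher in all 4 pairs but overlapping. Atp6v1a, the catalytic A subunit, was at -0.64, -0.63 and -0.36 on the controls of A and 0.61, 0.32 and 0.51 with MMP3, a rise of 1.02 (SE 0.108, adjusted p = 0.0191). In B the values of Atp6v1a were -0.71, 0.29, -0.58 and 0.29 for controls and -0.56, 0.20, -0.20 and 0.79 for MMP3, with the low arrays at 25K and 100K. Atp6v1f, Atp6v1c1 and Atp6v1g1 rose in A by 0.63, 0.59 and 0.55 (adjusted p = 0.0206, 0.0447 and 0.0190), and the mean over probe sets gave 0.31 for Atp6v1g1. Not called in either fit were Atp6v1b2, Atp6v1c2 and Atp6v1h, with effects in A of -0.87, 0.27 and -0.32. With the mean over probe sets, Atp6v1b2 was at -0.24 and Atp6v1h, turning in sign, at 0.04. Atp6v1b2 and Atp6v1h each had their highest value on the MMP3 100K array of B, which stood apart, and their effects in B were 0.77 and 0.69.

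Tfeb and Sqstm1, the regulator and the autophagy receptor, were 2 of the 7 members with an effect below 0 in A. Tfeb, the transcription factor that drives lysosomal genes, was at 0.02, 0.01 and 0.005 on the controls of A and -0.56, -0.12 and -0.005 with MMP3. Every MMP3 array of A lay below every control, with an effect of -0.24 (SE 0.0868, adjusted p = 0.136), which was not called. In B its controls were at 0.01, -0.29, 0.35 and -0.01 and its MMP3 arrays at 0.43, -0.02, 0.47 and -0.0061, higher in all 4 pairs but overlapping, and the effect over both experiments was 0.01 (adjusted p = 0.983). The value measures Tfeb mRNA and says nothing on where the protein was. Sqstm1, p62, which brings ubiquitinated cargo to autophagosomes, was at -0.19, 0.04 and 0.27 on the controls of A and -0.58, -0.04 and 0.30 with MMP3, overlapping and with an effect of -0.15 (adjusted p = 0.250). The mean over its probe sets gave 0.19, the opposite sign. In B the Sqstm1 controls were at -0.66, -0.17, -0.14 and -0.35 and the MMP3 arrays at 0.34, 0.17, 2.87 and 0.93, without overlap and with the 100K MMP3 array highest. The effect in B was 1.41 (SE 0.611, adjusted p = 0.462). The other probe set of Sqstm1 gave a smaller mean difference in B, 0.37.

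The fit over both experiments holds the arrays of A, so the calls of the 2 fits are not independent. Atp6v1d, Hexa, Lamp2 and Npc2 were called in each, and 13 members in neither. Of the 8 members with the longer promoter motif 4 were called in A and 0 over both experiments, with median effects of 0.69 and 0.51. Of the 26 tested members matched to a promoter without it, 15 were called in A and 8 over both, with medians of 0.55 and 0.53. Whether the MMP3 effect differed between experiments was fitted on the 12 arrays of the densities that both had, and gave 0 calls among members and 0 of all genes (0%) by limma, with 12 members and 2147 genes under an unadjusted p of 0.05. The 3 members with the smallest p were Atp6v0e2 (-1.65, SE 0.520), Scarb2 (1.16) and Gla (1.04), each with an adjusted p of 0.239. B minus A was below 0 for 28 of the 43 members and above 0 for 15, against 51.1% of all genes above 0, and its median was -0.26. That median was -0.11 with the mean over probe sets and ran from -0.37 to -0.14 with 1 array left out.

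Density was the second variable of the design. The slope, the change in log2 expression per doubling of plated cells averaged over agents, was called for 0 of 43 members and 0 of 11812 genes (0%) by limma over both experiments, with 20 members and 1358 genes under an unadjusted p of 0.05. It was above 0 for 41 of 43 members, against 50.7% of all genes, with a median of 0.16 against 0.0013. Smallest in p were Gaa (0.25, SE 0.0481), Hexa (0.21, SE 0.0436) and Atp6v1d (0.16, SE 0.0338), each with an adjusted p of 0.133. In A alone 0 members and 0 genes (0%) were called, with 16 members and 3506 genes under an unadjusted p of 0.05, and 37 slopes were above 0, against 46.2% of all genes. The median slope in A was 0.13, and from 0.045 to 0.21 with 1 array left out. The smallest p-values were those of Atp6v1c2 (-0.37), Npc2 (0.24) and Sqstm1 (0.28), each with an adjusted p of 0.105. In B alone 0 members and 0 genes (0%) were called, with 7 members and 470 genes under an unadjusted p of 0.05, and 41 slopes were above 0, against 51% of all genes. Smallest in p were Gaa (0.23), Atp6v1d (0.19) and Grn (0.21). In B Ifit1 was high at 50K and 250K and low at 25K and 100K under both agents. The slopes of B, and of both experiments together, take in that split, and its part in them was not tested. With the 4 arrays of B on which Ifit1 went against the label left out, 14 members had a slope above 0 at an adjusted p under 0.05, where 13.1% of all genes did. That alternative was chosen after seeing the data and is no independent support. It left B with controls at 25K and 100K and MMP3 arrays at 50K and 250K, so agent and density were partly aligned there.

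The 250K arrays with MMP3 held the highest values of most members. Of the 43 members 37 were highest at 250K among the MMP3 arrays of A, against 38.2% of all genes, and 31 among those of B, against 25.2%. The array labelled MMP3 250K of B was the highest of all 14 for 26 members, against 14.8% of all genes, and control 50K of A the lowest for 20, against 6.2%. Among the controls of A 27 members were highest at 250K, where 37.6% of all genes were. The members' median was -0.47, -0.38 and -0.28 on the controls of A and 0.14, 0.09 and 0.51 on its MMP3 arrays, and in B -0.35, 0.10, -0.27 and 0.07 on the controls and -0.29, 0.28, 0.02 and 0.75 with MMP3. Within B the median did not follow density: it was higher at 50K than at 100K under both agents. The interaction, a slope that differs between agents, was called for 0 members and 0 genes (0%) by limma, with 5 members and 228 genes under an unadjusted p of 0.05, and was above 0 for 39 of 43 members, against 53.9% of all genes. Its median was 0.14, 0.047 with quantile normalization, 0.052 without the 4 arrays of B, and from 0.064 to 0.23 with 1 array left out. Smallest in p were Cln3 (0.45), Atp6v1d (0.22) and Atp6v0b (0.35).

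**Figure D4:**
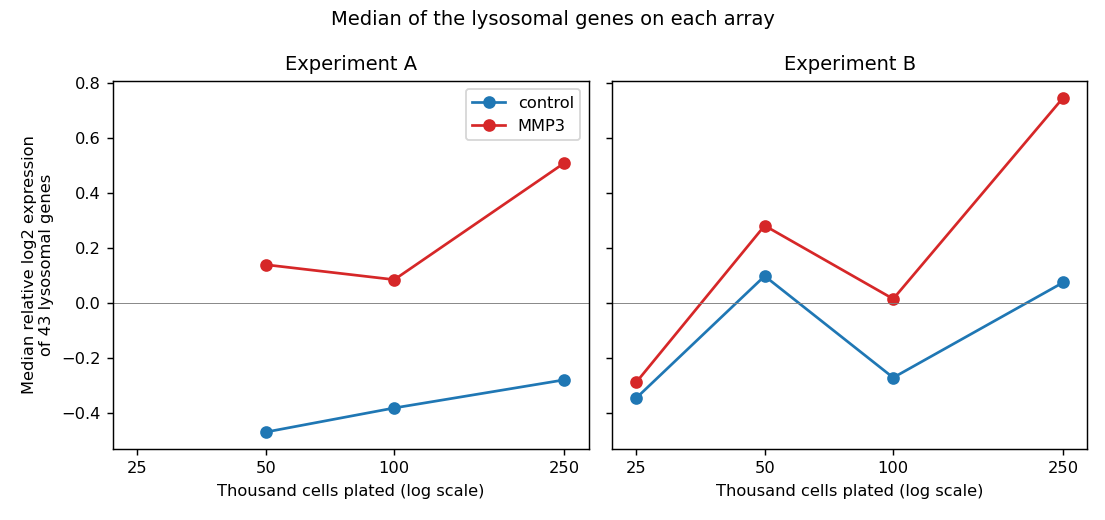
Median relative log2 expression of the 43 tested lysosomal genes (vertical axis) on each array by K cells plated (horizontal axis, log scale), for controls and MMP3 in experiments A and B; each point is 1 array. MMP3 lies above control at every density, by the most at 250K in both experiments, and in B both lines dip at 100K.

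Members tended to move together across arrays. Over 14 arrays the median correlation of the 903 pairs of members was 0.659, with 726 pairs above 0, and 30 of 43 members had r above 0.7 with the median of the others. Below 0 were Atp6v0a1 (-0.497), Tfeb (-0.297), Atp6v1b2 (-0.19), Atp6v1h (-0.117) and Ctsc (-0.018). With Ifit1, 27 members had r above 0.7. Lowest were Tfeb (-0.568), Atp6v1b2 (-0.482), Atp6v0a1 (-0.476) and Atp6v1h (-0.394). Others under 0.7 included Gaa (0.428), Grn (0.463), Psap (0.417), Gla (0.011), Scarb2 (-0.074) and Sqstm1 (-0.15). All genes were measured on the same arrays, which share their agent, density and labels, so these values are descriptions without a p. The same values were not computed over all genes tested, so they cannot show whether members differ in this from other genes.

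Other genes of the lysosome and of autophagy were taken from a list of the pathway. Of 82 tested, 24 rose and 0 fell in A, where 14.5% of all genes rose, and effects were above 0 for 59 and below 0 for 23. Over both experiments 5 rose and 0 fell, where 1.34% of all genes rose. In B 0 were called by limma, with 12 of the 82 and 1373 of all 11812 genes under an unadjusted p of 0.05. By group, the calls in A were 14 of 23 other hydrolases, 6 of 15 membrane and sorting proteins, 4 of 27 autophagy genes and 0 of 17 genes of the TFEB family and of mTORC1 on lysosomes, of which 2 had an unadjusted p under 0.05. The 5 over both experiments were Gm2a, the activator protein that presents ganglioside to Hexa (1.45, adjusted p = 0.0466), Tecpr1, which acts in autophagosome maturation (1.03), the sulfatase Arsa (1.02), the sorting receptor Sort1 (1.0) and the sphingomyelinase Smpd1 (0.91). In A the largest rises were those of the protease Ctso (1.96), Gm2a (1.85), the acid phosphatase Acp2 (1.44), Smpd1 (1.20), Sort1 (1.20) and Ostm1 (1.11), a partner of a lysosomal chloride transporter.

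Markers of other cell types were read beside these genes, since macrophages and fibroblasts are rich in lysosomal hydrolases. Of 10 macrophage markers 3 passed the SD filter (Csf1r, Cd14 and Lyz2), 0 were called in A, in B or over both by limma, 0 had an unadjusted p under 0.05, and their median effect in A was -0.02. Their summed relative log2 level ran from -0.04 to 0.57 on the controls of A and from -0.05 to 0.20 on its MMP3 arrays, and the other 7, Adgre1 and Ptprc among them, varied too little to be tested. The 0.57 was that of Cd14 on control 100K. Csf1r was at 0.34 on MMP3 25K of B and between -0.02 and 0.03 on the other arrays. Cd68, also used as a macrophage marker, was listed with the membrane and sorting proteins and not called. It was at 4.61 on MMP3 100K of B, 1.82 on MMP3 250K of B and 1.84 on control 250K of A. Of 7 fibroblast markers 2 were tested (Pdgfra and Dcn), with a summed level from -0.49 to 2.15 on the controls and -1.0 to 0.31 on the MMP3 arrays of A, and from -1.30 to 0.63 and 0.22 to 2.46 in B. Dcn was at 0.96 on MMP3 250K of B and between -0.02 and 0.02 on the other arrays, where the sum was thus nearly that of Pdgfra alone. Of the 2 tested, 0 were called, with 0 under an unadjusted p of 0.05 in A and 1 in B. No endothelial marker of 4 passed the filter. Of the 4 tested epithelial markers, Epcam and Cdh1 rose in A (1.18 and 0.89) and Krt5, a basal keratin, fell (-1.03), Krt14 had an effect of -0.38, and Krt8 and Krt18 were under the SD filter. The summed level of the 4 was -5.55 on the MMP3 100K array of B and between -0.56 and 1.86 on the other 13 arrays. Most of the -5.55 came from Krt14, at -3.93 on that array, with Cdh1 at -0.91, Epcam at -0.43 and Krt5 at -0.28. The 1 tested adipocyte marker, Fabp4, was not called. As these values carry no level, they cannot show whether a marker was expressed. Technical controls moved with the groups of A: the 18S probe set ran from 0.45 to 0.83 on its controls and from 0.92 to 1.15 on its MMP3 arrays, and the 3′ minus 5′ difference of Gapdh from -0.03 to 0.03 and from 0.04 to 0.17. In B both overlapped between agents, as did the difference of actin in both experiments. The highest actin difference, 0.65, was on the MMP3 100K array of B, which also stood apart in spread. The next highest was 0.19, on MMP3 250K of B. The part of these in the members' changes was not tested.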

How the data were processed

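RNA from 14 dishes of SCp2 cells was measured on 14 arrays (200 ng of total RNA each, per the labels' protocols). The deposited log2 values were made with RMA, per the submitters' processing notes. The log base (log2 is what RMA gives) and any further step were not given in the sources used. Values of 45101 probe sets were centred on the median over the arrays (within 5e-07 of 0, seen in the values). Platform annotation named 1 gene for 34945 probe sets, and 1 probe set per gene was kept, the one with the largest SD. Genes with SD at or above the 40th percentile (0.049) were tested with limma 3.58.1 in R 4.3.3 (lmFit, eBayes, Benjamini-Hochberg over 11812 genes, threshold 0.05). Models held agent, log2 density, their product and, over both experiments, the experiment as block. This left 9 residual degrees of freedom, 2 for A and 4 for B. The code was tested on simulated data.

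Several probe sets passed the filter for 28 of the 49 members, and 9 of these had one of opposite sign in A: Atp6v0a1, Atp6v1b2, Atp6v1h, Ctsa, Ctsb, Gla, Neu1, Npc2 and Sqstm1. The labels say the letters mark separate experiments, which makes the letter the replicate block. Arrays of the same letter deviated from their group means with a mean correlation of 0.0578 (15 pairs of arrays, from -0.674 to 0.651). Values on every array are given for up to 12 called members with the largest effect over both experiments, up to 12 likewise in A, and Lamp1, Lamp2, Ctsd, Ctsb, Tfeb and Sqstm1; where none passed, the 3 with the smallest p are named. Up to 6 called genes of the wider pathway list are named. The members and lists were chosen with earlier results of these data known. Alternatives were the SD filter, the mean over probe sets, quantile normalization, robust eBayes, density as a factor, the block, and each array left out. The mean over probe sets took in every probe set of a gene, also those under the SD filter, so a flat probe set shrinks the effect.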

Additional observations from a re-analysis of the deposited data

Results flagged for a closer look

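A single array stood far from the other 3 of its group in 3 of the 86 groups of 4 arrays examined in experiment B, where chance gives about 1 in 20. On the array labelled MMP3 100K, Atp6v1b2 was at 3.14 and Atp6v1h at 2.98, both V1 subunits, each above the other MMP3 arrays of B. Atp6v1c2 was at -0.33 on the array labelled control 100K, below the other controls of B. The MMP3 100K array is the one that stood apart over all probe sets, and the part of that in these values was not tested.

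For 3 of the 43 members (6.98%) every pair of A went one way and every pair of B the other, as for 1679 of the 11812 genes (14.2%). Atp6v1c2 differed by 0.27 on average in A and by -1.07 in B, Gusb by 0.67 and -0.48, and Tfeb by -0.24 and 0.20. The pairs of Atp6v1c2 in B differed by -1.31 at 25K, -0.02 at 50K, -2.93 at 100K and -0.03 at 250K. The largest of these was on the MMP3 100K array that stood apart. The difference itself, fitted on the 12 arrays at shared densities, was -1.26 for Atp6v1c2 (limma, adjusted p = 0.477), -1.22 for Gusb (adjusted p = 0.249) and 0.37 for Tfeb (adjusted p = 0.388), none of them called.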

How the results depend on the processing

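Over both experiments, where 325 genes and 8 members were called for MMP3, no SD filter gave 206 genes, a stricter filter 2 genes and 0 members, quantile normalization 644 genes, no replicate block 0 genes and 0 members, and the replicate block by pair 2 genes and 0 members. With the 4 arrays of B on which Ifit1 went against the label left out, chosen after seeing the data, 4614 genes and 33 members were called for MMP3 and 2928 genes and 14 members for density. The mean over probe sets gave 440 genes and 11 members for MMP3. Leaving out 1 array at a time gave 0 to 1287 genes and 0 to 21 members. The adjusted p of the 8 members ran over the alternatives from 0.00135 (Hexa) to 0.151 (Tpp1). In A, where 2960 genes and 26 members were called, no SD filter gave 1271 genes and 12 members, the replicate block by pair 1908 genes and 20 members, and leaving out 1 array 0 genes and 0 members. A stricter filter gave 123 genes for the density slope of A. The difference between experiments ranged from 0 to 75 genes when 1 array was left out, 1 without control 100K of A and 75 without control 100K of B. Tfeb over both experiments changed sign, from 0.01 to -0.067 with quantile normalization, to -0.27 without the 4 arrays of B, and, with 1 array left out, ranged from -0.074 to 0.11, below 0 without MMP3 250K of A or control 50K, control 250K, MMP3 25K or MMP3 100K of B. With the mean over probe sets, Sqstm1 in A changed from -0.15 to 0.19, and among members with no call Atp6v1h and Gla also changed sign in A and Atp6v0a1 in B. The members' median MMP3 effect stayed above 0 under the alternatives run. Over both experiments it was 0.47, 0.37 with the mean over probe sets, 0.61 without the 4 arrays of B and 0.41 to 0.53 with 1 array left out. In A it was 0.59 (0.49 to 0.69) and in B 0.35 (0.22 to 0.49). The cause of these changes was not tested, except that fewer residual degrees of freedom or more genes tested come with leaving out arrays or the filter. The values give no signal over background, so a member near background cannot be told from one that did not change.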
